A study of Homo sapiens with 15 samples.

Results

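RNF5 is an E3 ubiquitin ligase anchored in the membrane of the endoplasmic reticulum (ER), and this account follows its transcript, that of its paralog RNF185, and those of 7 genes whose protein products are described as RNF5 clients. The 9 genes, of 57820 gene IDs in the deposited tables, were RNF5, RNF185, SLC1A5, SLC38A2, ATG4B, JKAMP, TMEM173, MAVS and PXN, taken by symbol with 1 gene ID each; the rule uses no measured value, although it was set with earlier results of these data known. RNA was sequenced from 3 acute myeloid leukemia (AML) lines, HL-60, MOLM-13 and U937, each transduced with the empty lentiviral vector (pLKO) or with a short hairpin RNA against RNF5 (shRNF5, the RNF5-KD cells), and no other treatment was named. The libraries numbered 3 pLKO and 2 shRNF5 in MOLM-13, 2 and 2 in U937, and 3 and 3 in HL-60. The sample labels place the harvest 7 days after knockdown, while the design text of the series gives 5 days. The labels name a 3′ tag kit, whereas the methods of the study describe a directional poly(A) kit, and neither says which RNF5 hairpin was sequenced or whether the replicates came from separate cultures. The p-values below therefore measure only the spread between these libraries, which may be technical.

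RNF5 and RNF185 each carry a RING finger near the amino terminus and membrane spans at the carboxyl end, and both attach ubiquitin to misfolded or surplus membrane proteins for ER-associated degradation (ERAD). The clients differ in role. SLC1A5 and SLC38A2 carry glutamine across the plasma membrane, ATG4B processes the ATG8 proteins of autophagy, and JKAMP is an ER membrane protein that ties JNK to the degradation machinery. TMEM173 (STING) and MAVS are adaptors of innate sensing of DNA and RNA, and PXN encodes paxillin, a scaffold of focal adhesions. A ligase acts on its clients as proteins, whereas the values here are transcript levels.

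RNF5 lies on chr6:32146182-32148570 (GRCh37, plus strand) and its longest coding transcript in the GENCODE annotation for that build has 1117 bases in 6 exons. RNF185 lies on chr22:31556168-31603005 (plus strand), with 3182 bases in 7 exons. The coding sequences of RNF5, 540 bases, and RNF185, 576 bases, were identical at 67.2% of 528 aligned positions. Of the 1043 stretches of 75 bases in the RNF5 transcript, the read length in the labels, 0 were identical to a stretch of RNF185, and the closest pair still differed at 17 positions. That pair is shown because it is where the paralogs are hardest to tell apart by a read. It codes for part of the RING finger and is read across spliced exons, from exon 1 to exon 3 in RNF5 (chr6:32146376-32147430) and from exon 2 to exon 4 in RNF185 (chr22:31583204-31591457). Capitals mark the bases that differ.
RNF5: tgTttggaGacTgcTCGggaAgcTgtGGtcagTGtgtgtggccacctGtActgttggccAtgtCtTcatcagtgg
RNF185: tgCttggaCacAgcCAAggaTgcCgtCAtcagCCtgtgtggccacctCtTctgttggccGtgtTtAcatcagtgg
The longest run the transcripts shared was 13 bases, so a read of this length from either gene can be assigned to it. A second copy of RNF5 is much closer. RNF5P1, a pseudogene of 540 bases in a single exon, was identical to the RNF5 coding sequence at 531 of 537 aligned positions (98.9%). Of its 466 stretches of 75 bases, 105 occurred unchanged in RNF5 and 397 differed from it at no more than 2 positions.

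Values are normalized read counts, which the authors scaled between the libraries of 1 line, so levels are compared within a line and those of different lines are only set side by side. Back-calculated from the steps between low values, the libraries held about 9700000 to 63800000 counted reads. In MOLM-13 the pLKO libraries held about 13400000, 15300000 and 9700000, and the shRNF5 libraries 63800000 and 24400000. Depth and construct cannot be told apart in that line, whereas the depths of the groups overlapped in U937 and HL-60. A gene was called where limma, fitted to log2(value + 1) over all genes of a line, gave a Benjamini-Hochberg adjusted p under 0.1 and an absolute log2 fold change above 0.4. All 8 myeloid markers examined were above 0 in every library, although ANPEP was at 2 to 53 in MOLM-13 and MPO at 32 to 96 in U937. Of 8 markers of other cell types, 5 were at 0 in every library, and PAX5 stood at 925 to 1275 in MOLM-13 and 151 to 268 in U937.

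RNF5 fell in all 3 lines. In MOLM-13 the pLKO libraries had 1223, 1017 and 1020 normalized read counts of RNF5 and the shRNF5 libraries 76 and 81. In U937 the values were 648 and 843 against 46 and 74. In HL-60 they were 506, 689 and 545 against 37, 133 and 43. The groups were far apart in each line, and HL-60 shRNF5 replicate 2 kept the most RNF5. As a share of the pLKO mean, 7.0% and 7.5% remained in MOLM-13, 6.2% and 9.9% in U937, and 6.4%, 22.9% and 7.4% in HL-60. The log2 fold change for MOLM-13 was -3.77 ± 0.18 (SE; adjusted p = 0.000336), for U937 -3.64 ± 0.37 (adjusted p = 0.00287) and for HL-60 -3.25 ± 0.39 (adjusted p = 0.00125). Averaged over the lines in a single fit of all 15 libraries it was -3.55 ± 0.23 (adjusted p = 4.37e-07). With 2 libraries a side, the U937 call was lost without pLKO replicate 2 (-3.83, adjusted p = 0.256) or without shRNF5 replicate 1 (-3.30, adjusted p = 0.292), at a similar fold change. The drop was not shown to differ between lines, the differences of the log2 fold changes being -0.13 for MOLM-13 minus U937, -0.52 for MOLM-13 minus HL-60 and -0.39 for U937 minus HL-60. For MOLM-13 minus HL-60, 0 of the 9 genes passed an adjusted p of 0.1, against 8.82% of all genes. An unadjusted limma p under 0.05 was found for 1 (PXN, -1.37, adjusted p = 0.134), and for 2488 of all 11072 genes. In a bulk library, fewer cells with RNF5 and less RNF5 RNA per cell cannot be told apart.

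**Figure D1:**
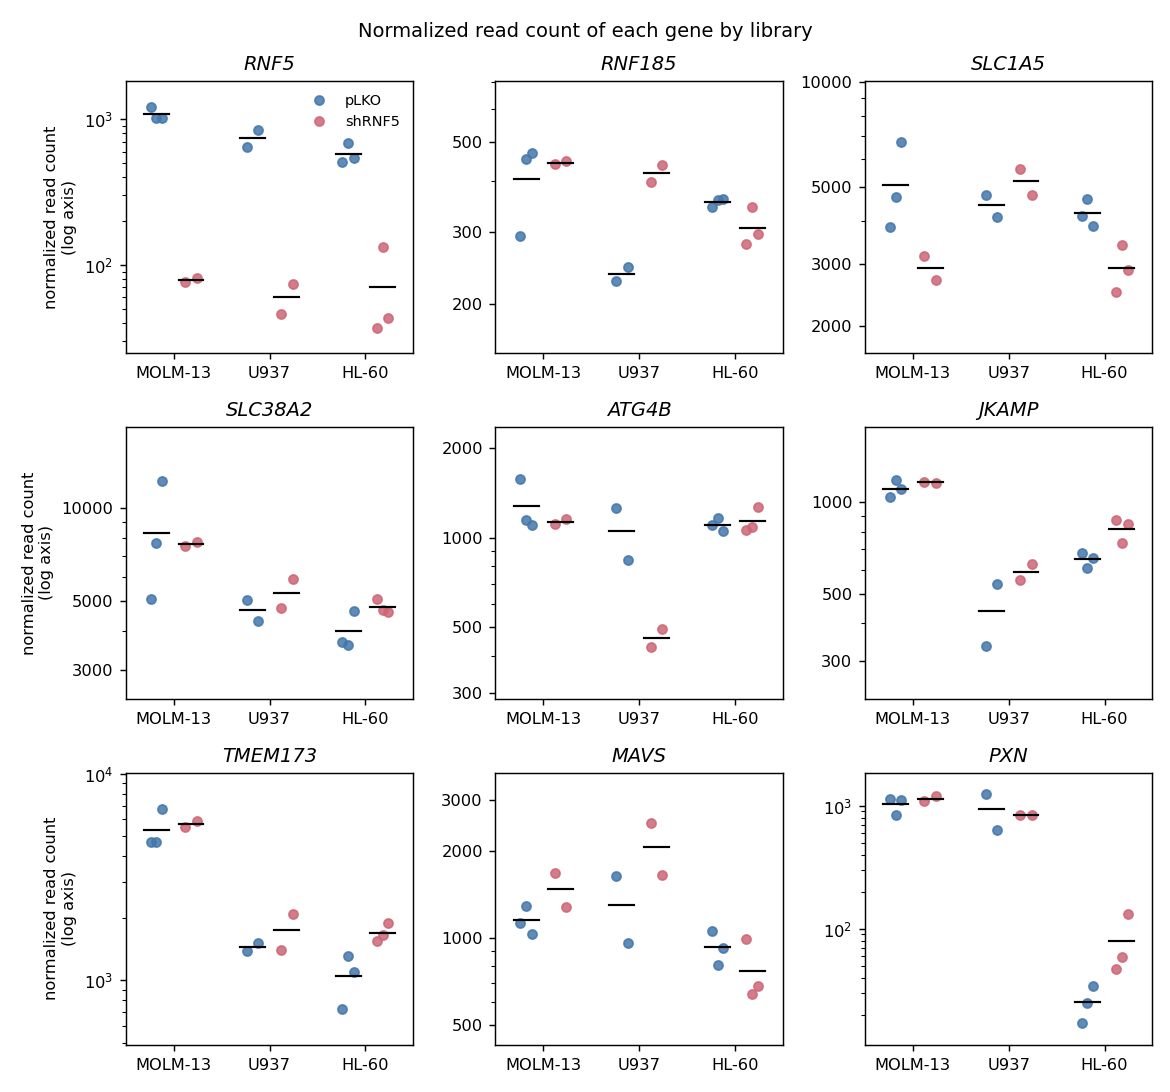
Normalized read count (log axis) of the 9 genes in every library, by line on the horizontal axis, with pLKO in blue, shRNF5 in red and a black bar at each group's mean. RNF5 separates in every line, from 506 or above to 133 or below, whereas the other genes separate in some lines or in none, and PXN lies at 17 to 133 in HL-60 against 632 to 1243 elsewhere.

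RNF5P1 was listed at 0 in every MOLM-13 and U937 library, where a gene under the authors' filter is also written as 0. In HL-60 it had 27, 48 and 42 normalized read counts with pLKO and 2, 7 and 0 with shRNF5. The pseudogene thus fell together with its parent, by a log2 fold change of -3.75 ± 0.67 (adjusted p = 0.00544). As a share of RNF5 in the same library, RNF5P1 was 5.34%, 6.97% and 7.71% with pLKO and 5.41%, 5.26% and 0% with shRNF5. Given the shared stretches described above, reads of RNF5 and RNF5P1 cannot be fully told apart at this length, and the RNF5P1 values are uncertain.

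**Figure D2:**
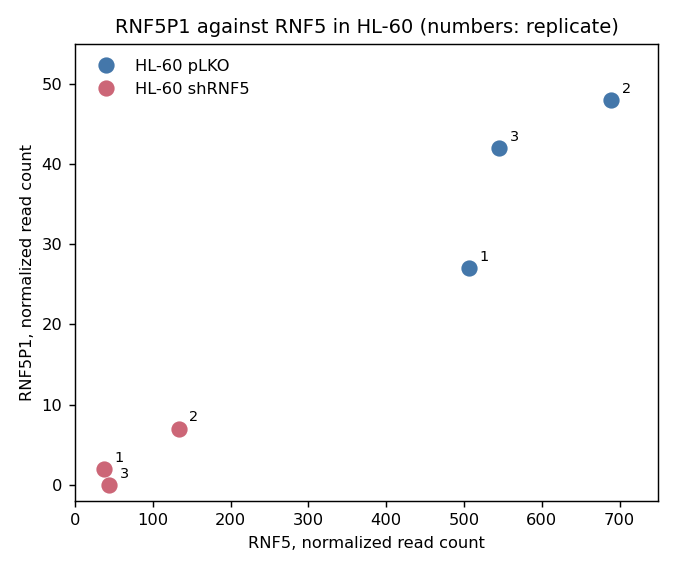
Normalized read count of RNF5P1 (vertical axis) against RNF5 (horizontal axis) in the 6 HL-60 libraries, with pLKO in blue, shRNF5 in red and the replicate number beside each point. Both values are low in the 3 shRNF5 libraries, and shRNF5 replicate 2 is the highest of the 3 for each gene.

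RNF185, the closest relative of the targeted ligase, passed the threshold in none of the 3 lines, with log2 fold changes of either sign. In MOLM-13 it had 293, 452 and 469 with pLKO and 441 and 447 with shRNF5. In U937 the values were 227 and 247 against 397 and 439. In HL-60 they were 345, 359 and 361 against 280, 345 and 297. The U937 groups did not overlap, and the shRNF5 mean was 1.76 times the pLKO mean. The other lines overlapped or touched. The log2 fold change for MOLM-13 was 0.16 ± 0.24 (adjusted p = 0.753), for U937 0.82 ± 0.30 (adjusted p = 0.115) and for HL-60 -0.21 ± 0.15 (adjusted p = 0.321). The U937 value passed when only genes with a mean of at least 50 were tested (adjusted p = 0.099) and in the single fit over all 15 libraries (adjusted p = 0.0146). In that fit the response in U937 exceeded that in HL-60 by 1.03 ± 0.29 on the log2 scale (adjusted p = 0.0162). This difference passed in all 19 alternatives, with values from 0.96 to 1.11 and a highest adjusted p of 0.0985, just under the limit. Of all genes, 37.2% differed between these 2 lines by the same rule.

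Which of the paralogs had more transcript was reversed between pLKO and shRNF5 libraries. Per kb of transcript, RNF5 was 6.20 to 11.9 times RNF185 in the MOLM-13 pLKO libraries, 8.13 to 9.72 times in U937 and 4.18 to 5.47 times in HL-60. With shRNF5 the ratio per kb was 0.491 to 0.516 (MOLM-13), 0.330 to 0.480 (U937) and 0.376 to 1.1 (HL-60). RNF185 was therefore the higher of the pair in every shRNF5 library but HL-60 replicate 2, where they were nearly level. Summed per kb, both transcripts together went from a mean of 1100 to 210 in MOLM-13, from 742 to 185 in U937 and from 631 to 160 in HL-60. Should the libraries be 3′ tags, length does not enter, and the ratio of the values themselves applies. That ratio went from 2.17 to 4.17 with pLKO to 0.172 to 0.181 with shRNF5 in MOLM-13, from 2.85 to 3.41 to 0.116 to 0.169 in U937, and from 1.47 to 1.92 to 0.132 to 0.386 in HL-60. By either measure the pLKO and shRNF5 libraries did not overlap in any line.

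**Figure D3:**
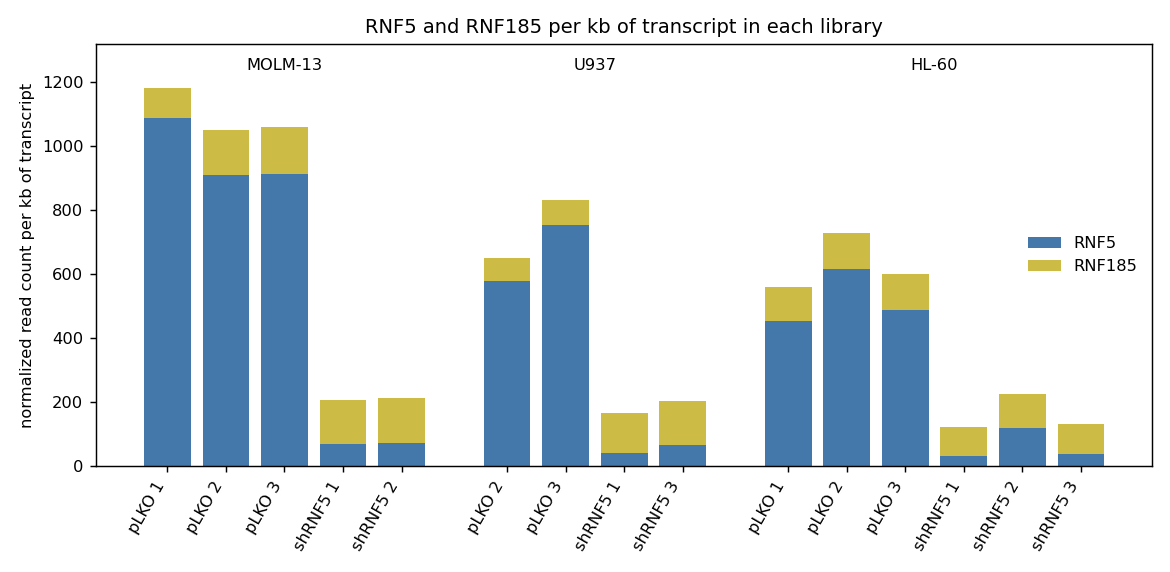
Normalized read count per kb of transcript of RNF5 (blue) and RNF185 (yellow), stacked, in each of the 15 libraries; the vertical axis starts at 0. RNF5 makes up most of every pLKO bar and RNF185 most of the shRNF5 bars except HL-60 shRNF5 replicate 2, while the whole bar falls from 561 or above to 227 or below.

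Beside RNF5 itself, the rule called 3 of the other 8 genes in HL-60 (37.5%), 1 in U937 (12.5%) and 0 in MOLM-13. Over all genes tested the same rule called 25.9% for HL-60 (13.6% higher and 12.3% lower with shRNF5), 15.7% for U937 (6.92% higher, 8.74% lower) and 2.04% for MOLM-13 (1.03% higher, 1.01% lower). The shares of the 8 lie near these. At an unadjusted limma p under 0.05 the MOLM-13 count of the 8 was 1 (SLC1A5), where 2213 of all 13026 genes tested had such a p. Their median log2 fold change was 0.16 (HL-60), 0.24 (U937) and 0.10 (MOLM-13), against 0.00, 0.00 and 0.01 over all genes. Averaged over the lines in the single fit, TMEM173 gave 0.37 (adjusted p = 0.0722) and JKAMP 0.29 (adjusted p = 0.0689), both under the fold required. PXN gave 0.53 (adjusted p = 0.105), RNF185 0.26 (adjusted p = 0.147), MAVS 0.25 (adjusted p = 0.249) and SLC38A2 0.14 (adjusted p = 0.549). The other genes went down. SLC1A5 gave -0.35 (adjusted p = 0.0502), and ATG4B gave -0.43 (adjusted p = 0.0155) and was called, as were 14.2% of all genes. Groups without overlap were seen for 4 of the 8 in HL-60, 4 in U937 and 1 in MOLM-13, and for 38.5%, 59.2% and 38.7% of all genes in those lines.

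**Figure D4:**
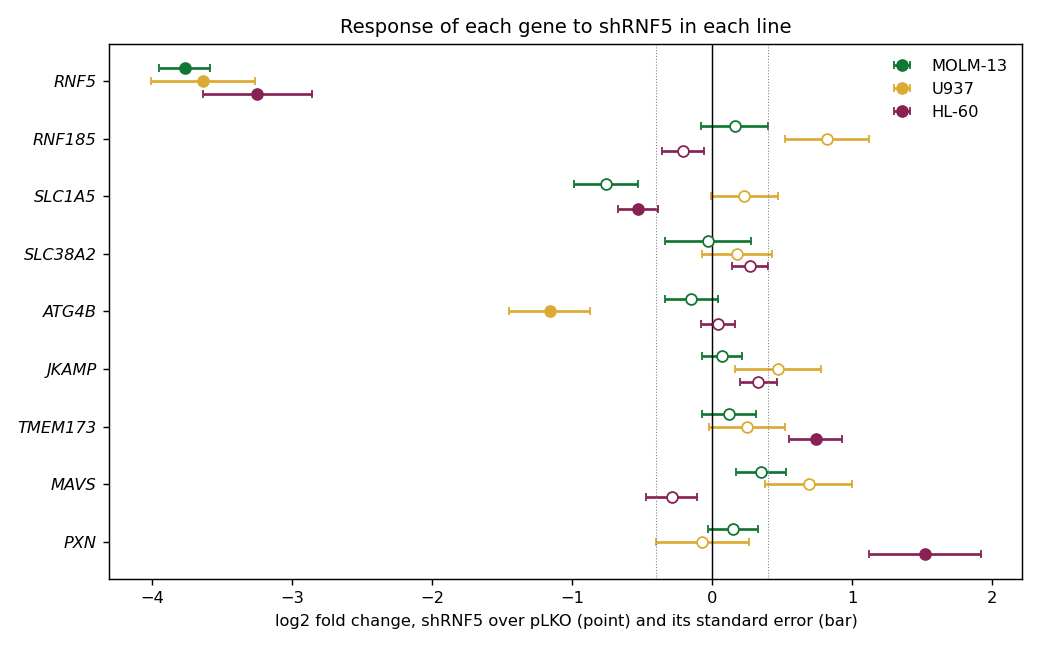
Log2 fold change of shRNF5 over pLKO (point) with its standard error (bar) for the 9 genes, by line (colour). Filled points were called (adjusted p under 0.1 and beyond the dotted lines at an absolute value of 0.4): RNF5 in all 3 lines, ATG4B in U937, and SLC1A5, TMEM173 and PXN in HL-60.

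SLC1A5 (chr19:47278140-47291851, minus strand) encodes the main glutamine importer ASCT2. In MOLM-13 its values were 3839, 4688 and 6719 with pLKO and 3161 and 2698 with shRNF5. In HL-60 they were 4131, 4613 and 3875 against 2496, 3401 and 2884. U937 had 4750 and 4103 against 5650 and 4733. Every shRNF5 library lay below every pLKO library in MOLM-13 and HL-60, while the U937 groups overlapped with the higher mean on the shRNF5 side. The transcript fell in HL-60, by 0.53 ± 0.14 on the log2 scale (adjusted p = 0.0239), and this call held in all 15 alternatives, with values from -0.64 to -0.42. In MOLM-13 the log2 fold change was larger, -0.76 ± 0.23, but did not pass (adjusted p = 0.174). It passed without pLKO replicate 1 (-0.94, adjusted p = 0.0598), with a replicate block by the numbers in the file names (-0.94, adjusted p = 0.000476) and in the fit over all 15 libraries (adjusted p = 0.0874). U937 gave 0.23 ± 0.24 (adjusted p = 0.571). In the direct tests of the difference, MOLM-13 minus U937 was -0.99 (adjusted p = 0.0577; 15.4% of all genes differed) and U937 minus HL-60 was 0.76 (adjusted p = 0.0598). The first was lost without U937 pLKO replicate 2 (-1.09, adjusted p = 0.115), U937 shRNF5 replicate 1 (-0.86, adjusted p = 0.23) or MOLM-13 shRNF5 replicate 1 or 2 (adjusted p = 0.103 and 0.215). The second was lost without U937 pLKO replicate 3 (0.65, adjusted p = 0.133), U937 shRNF5 replicate 1 (0.63, adjusted p = 0.205), HL-60 pLKO replicate 2 (adjusted p = 0.108) or HL-60 shRNF5 replicate 1 (adjusted p = 0.12).

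SLC38A2 (chr12:46751971-46766556, minus strand) encodes SNAT2, a sodium-coupled carrier of small neutral amino acids that cells induce when amino acids run short. Its values in MOLM-13 were 5087, 7695 and 12217 with pLKO and 7540 and 7780 with shRNF5, so that both shRNF5 libraries lay inside the pLKO range. U937 had 5036 and 4320 against 4754 and 5883. HL-60 had 3694, 3610 and 4655 against 5067, 4674 and 4607. The groups overlapped in each line. The log2 fold change was 0.27 ± 0.13 for HL-60 (adjusted p = 0.165), 0.18 ± 0.25 for U937 (adjusted p = 0.666) and -0.03 ± 0.31 for MOLM-13 (adjusted p = 0.968). Over the lines the average was 0.14 (adjusted p = 0.549), against -0.35 ± 0.12 for SLC1A5 (adjusted p = 0.0502, below the fold required).

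Other genes of these processes were followed in 6 lists of partner genes, and their counts are read against the shares of all genes called (2.04% for MOLM-13, 15.7% for U937, 25.9% for HL-60). Counts over these lists and 3 further reported clients changed with the libraries and settings used. In U937 they fell from 16 to 0 without pLKO replicate 2, shRNF5 replicate 1 or shRNF5 replicate 3, to 2 without a mean-variance trend, and were 29 in the single fit. In MOLM-13 they went from 5 to 0 without pLKO replicate 2 or shRNF5 replicate 2, to 1 without pLKO replicate 3 or shRNF5 replicate 1, and to 11 without pLKO replicate 1. In HL-60 they went from 25 to 16 without pLKO replicate 3 and to 15 without shRNF5 replicate 3. The share of all genes called in each refit is not given here, and a fit with fewer libraries has less power. Leaving out a U937 library or a MOLM-13 shRNF5 library leaves a group with a single library. The U937 call of RNF5 itself was also lost without pLKO replicate 2 or shRNF5 replicate 1. These changes are therefore no result about the partner genes. Of the 10 genes for amino acid transport and glutamine use, none of them SLC1A5 or SLC38A2, 0 rose and 3 fell in MOLM-13, 3 rose and 1 fell of 9 tested in U937, and 2 rose and 5 fell in HL-60. Their median log2 fold change was -0.28, 0.20 and -0.32. SLC38A1, which encodes the glutamine carrier SNAT1, went from 6089 to 11259 with pLKO to 1727 to 2230 with shRNF5 in MOLM-13 (log2 fold change -2.12 ± 0.25, adjusted p = 0.0275). In HL-60 SLC38A1 went from 8295 to 10737 to 2488 to 4628 (-1.59 ± 0.21, adjusted p = 0.00157), and in U937 it gave -0.35 ± 0.24 (adjusted p = 0.364). SLC38A5, encoding the related carrier SNAT5, fell by 0.85 on the log2 scale in MOLM-13 (adjusted p = 0.0816) and by 1.33 in HL-60 (adjusted p = 0.00131), and was not tested in the single fit because it is listed at 0 in U937. SLC7A5, the light chain of the LAT1 exchanger that trades glutamine for leucine, rose in U937 (1.39, adjusted p = 0.0219) and fell in HL-60 (-1.26, adjusted p = 0.000616). SLC7A6, an exchanger of cationic and neutral amino acids, did the same (0.99, adjusted p = 0.0467, and -0.64, adjusted p = 0.0194). GLUL, which encodes glutamine synthetase, fell in U937 (-1.03, adjusted p = 0.0553) and rose in HL-60 (0.52, adjusted p = 0.0209).

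ATG4B (chr2:242576628-242613272, plus strand) encodes the cysteine protease that trims ATG8 proteins before they are joined to lipid. In U937 it had 1258 and 843 normalized read counts with pLKO and 430 and 492 with shRNF5. MOLM-13 had 1569, 1149 and 1099 against 1107 and 1150, and HL-60 had 1105, 1161 and 1048 against 1057, 1082 and 1265. Only in U937 were the groups apart, with 0.439 of the pLKO mean remaining. ATG4B fell there by 1.16 ± 0.29 on the log2 scale (adjusted p = 0.0428), whereas MOLM-13 gave -0.15 ± 0.19 (adjusted p = 0.701) and HL-60 0.04 ± 0.12 (adjusted p = 0.86). The U937 call was lost without pLKO replicate 2 (-0.87, adjusted p = 0.256), shRNF5 replicate 1 (-1.06, adjusted p = 0.6) or shRNF5 replicate 3 (-1.26, adjusted p = 0.221), and without a mean-variance trend (adjusted p = 0.133). The response in U937 was 1.2 lower than in HL-60 (adjusted p = 0.0053) and that in MOLM-13 was 1.01 higher than in U937 (adjusted p = 0.0421). The first difference passed with each library left out in turn, between -1.48 and -0.91, but not with a replicate block (-0.81, adjusted p = 0.126). The second was lost without U937 pLKO replicate 2 (0.72, adjusted p = 0.173), U937 shRNF5 replicate 1 (0.91, adjusted p = 0.187) or either MOLM-13 shRNF5 library. Averaged over the lines, ATG4B was called (-0.43 ± 0.11, adjusted p = 0.0155), and with RNF5 it made 2 of 9 genes, where 14.2% of all genes were called (7.62% higher and 6.61% lower with shRNF5). That average fell under the fold required without MOLM-13 pLKO replicate 1 (-0.37), U937 pLKO replicate 2 (-0.33) or U937 shRNF5 replicate 1 (-0.39), and with a replicate block (-0.33, adjusted p = 0.107).

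Among the other genes of ATG8 conjugation, 0 of 13 were called in MOLM-13, 1 of 12 fell in U937, and 3 of 12 rose in HL-60. ATG4C, a paralog of ATG4B, was the one that fell in U937 (-0.81 ± 0.27, adjusted p = 0.0929). ATG4D, another paralog, rose in HL-60 (0.77 ± 0.15, adjusted p = 0.00858) and averaged 0.45 over the lines (adjusted p = 0.0137). GABARAPL1, one of the ATG8 proteins, went from 87 to 142 with pLKO to 217 to 334 with shRNF5 in HL-60 (1.32 ± 0.23, adjusted p = 0.00486).

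JKAMP (chr14:59951161-59972128, plus strand) had 1039, 1178 and 1107 with pLKO and 1163 and 1158 with shRNF5 in MOLM-13. U937 had 338 and 537 against 553 and 627, and HL-60 had 681, 609 and 657 against 875, 735 and 846. All shRNF5 libraries of U937 and HL-60 exceeded all pLKO libraries of the same line. The sizes were small, 0.07 ± 0.14 in MOLM-13 (adjusted p = 0.838), 0.47 ± 0.31 in U937 (adjusted p = 0.353) and 0.33 ± 0.13 in HL-60, where adjusted p = 0.0906 but the fold stayed under the limit. Without HL-60 shRNF5 replicate 2 that value was 0.41 (adjusted p = 0.063) and was called. Of the ER membrane partners, the ERAD genes that work beside RNF5 and RNF185, 0 of 26 were called in MOLM-13, 1 rose in U937 and 4 rose in HL-60. VCP, the ATPase that pulls clients out of the membrane, was the U937 gene (0.85 ± 0.26, adjusted p = 0.0751). DERL2, a derlin of the export channel, rose from 257 to 290 with pLKO to 408 to 437 with shRNF5 in HL-60 (0.62 ± 0.14, adjusted p = 0.0125). ERLIN1, part of a membrane complex that recruits ligases, rose in HL-60 by 0.80 ± 0.17 (adjusted p = 0.00939) and gave 0.44 ± 0.13 in MOLM-13 (adjusted p = 0.174). For the JNK cascade, 0 of 6 were called in MOLM-13, 1 rose and 1 fell of 7 in U937, and 2 of 6 fell in HL-60. JUN, the transcription factor that JNK phosphorylates, rose in U937 (1.15 ± 0.26, adjusted p = 0.0328), and the scaffold gene MAPK8IP3 fell there (-1.34 ± 0.35, adjusted p = 0.0483). MAPK8, which encodes JNK1, fell in HL-60 (-0.59 ± 0.13, adjusted p = 0.0116).

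TMEM173 (chr5:138855118-138862520, minus strand), the STING adaptor of the cGAS pathway, rose in HL-60. There it had 731, 1309 and 1095 with pLKO and 1546, 1655 and 1900 with shRNF5. MOLM-13 had 4662, 4658 and 6740 against 5503 and 5921, and U937 had 1385 and 1513 against 1409 and 2101. The HL-60 groups did not overlap and those of the other lines did. The HL-60 log2 fold change of 0.74 ± 0.19 (adjusted p = 0.0243) held in all 15 alternatives, from 0.50 to 0.92, while MOLM-13 gave 0.12 ± 0.19 (adjusted p = 0.784) and U937 0.25 ± 0.27 (adjusted p = 0.574). Its response was not shown to differ between lines (U937 minus HL-60 -0.49, adjusted p = 0.279). Of 8 myeloid markers in HL-60, MPO was higher in every shRNF5 library (105563 to 130372 against 141317 to 207430) and carried most of their sum, PTPRC was also higher in every shRNF5 library, CD33 was lower in each, and the other 5 overlapped. Without MPO the sum was 12678 to 13581 with pLKO and 12188 to 15518 with shRNF5, and the part of these markers in the TMEM173 values was not tested.

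MAVS (chr20:3827446-3856770, plus strand), the mitochondrial adaptor of RNA sensing, had 1130, 1294 and 1035 with pLKO and 1675 and 1283 with shRNF5 in MOLM-13. U937 had 1646 and 959 against 2494 and 1656, and HL-60 had 1059, 804 and 923 against 993, 640 and 681. The U937 groups only just stood apart, at 1646 and 1656, and the other lines overlapped. No line passed (0.35 ± 0.18, adjusted p = 0.35; 0.69 ± 0.31, adjusted p = 0.186; and -0.29 ± 0.18, adjusted p = 0.28). The direct test placed U937 above HL-60 by 0.98 (adjusted p = 0.0497), a difference lost without U937 pLKO replicate 3 (0.59, adjusted p = 0.206), U937 shRNF5 replicate 1 (0.68, adjusted p = 0.238) or any of 3 HL-60 libraries (adjusted p from 0.101 to 0.105). Of the other STING and MAVS signalling genes, 1 of 15 fell in MOLM-13, 1 rose and 1 fell of 15 in U937, and 2 rose and 3 fell of 14 in HL-60. MB21D1, which encodes the DNA sensor cGAS, fell in MOLM-13 (-0.78 ± 0.16, adjusted p = 0.0853) and on average (-0.62 ± 0.11, adjusted p = 0.00162). IKBKE, a kinase downstream of both adaptors, rose in U937 (1.48 ± 0.29, adjusted p = 0.0223). IRF3, the transcription factor they activate, fell in U937 (-0.98 ± 0.25, adjusted p = 0.0434) and rose in HL-60 (0.41 ± 0.16, adjusted p = 0.0952).

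PXN (chr12:120648242-120703574, minus strand) had the largest fold change in any line among the 7 clients followed here. In HL-60 its values were 17, 25 and 34 with pLKO and 47, 59 and 133 with shRNF5. MOLM-13 had 1127, 849 and 1122 against 1088 and 1193, and U937 had 1243 and 632 against 845 and 845. The HL-60 groups did not overlap, but the transcript was scarce there, with 22 to 28 estimated reads in the pLKO libraries. PXN rose in HL-60 by 1.52 ± 0.40 (adjusted p = 0.0249), with values from 1.08 to 1.82 in the 15 alternatives, all called. In MOLM-13 it gave 0.15 ± 0.18 (adjusted p = 0.69) and in U937 -0.07 ± 0.33 (adjusted p = 0.914). U937 minus HL-60 was -1.59 (adjusted p = 0.0378), lost without U937 pLKO replicate 2 (-1.1, adjusted p = 0.181) or shRNF5 replicate 1 (adjusted p = 0.103). The antisense gene PXN-AS1 overlaps PXN and had 44, 58 and 57 with pLKO and 42, 73 and 90 with shRNF5 in HL-60, more than PXN itself in every pLKO library. It gave 0.30 ± 0.30 (adjusted p = 0.503). Whether the counting used strand is not given in the sources used here for these files, so reads of the overlap may be split between both genes.

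Of the other genes of the paxillin adhesion complex, 1 of 17 rose in MOLM-13, 5 of 16 in U937 and 3 of 15 in HL-60, and 0 fell. The HL-60 share lies below that of all genes. The U937 calls are lost when 1 of the 3 libraries named above is left out, which leaves a group with a single library. Their median log2 fold change was 0.19, 0.37 and 0.00. VCL, which encodes vinculin, rose in MOLM-13 (0.92 ± 0.16, adjusted p = 0.0682) and U937 (0.99 ± 0.23, adjusted p = 0.0373) but gave -0.04 ± 0.18 in HL-60 (adjusted p = 0.886), the line in which PXN rose. ITGB1, integrin beta 1, rose in U937 (1.17 ± 0.32, adjusted p = 0.0563) and HL-60 (0.48 ± 0.16, adjusted p = 0.0602) and gave 0.73 ± 0.18 in MOLM-13 (adjusted p = 0.123). PTPN12, a phosphatase that binds paxillin, rose in HL-60 (0.63 ± 0.11, adjusted p = 0.00581).

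**Figure D5:**
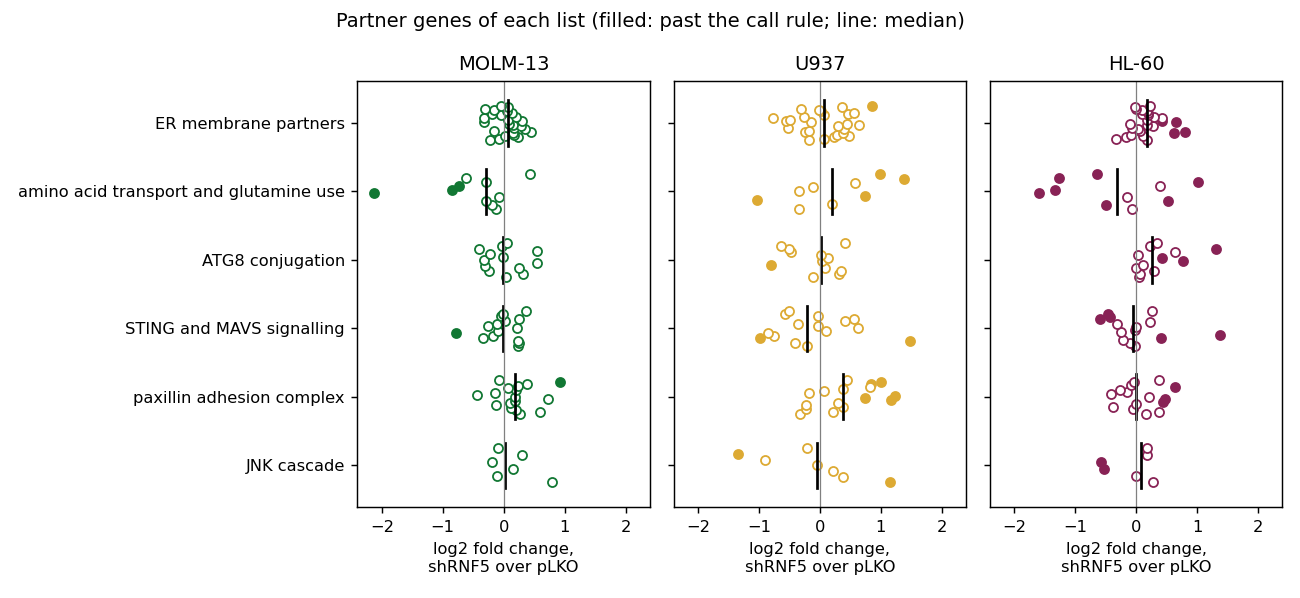
Log2 fold change of shRNF5 over pLKO for each tested partner gene (point) of 6 lists in MOLM-13, U937 and HL-60, filled where called, with a black line at each list's median. Over all lines together the amino acid transport list spreads widest, from -2.12 in MOLM-13 to 1.39 in U937, though not within U937 alone. The adhesion list has its calls on the right of 0 in every line.

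Across the 6 lists and 3 further reported clients, 5 of 89 tested genes were called in MOLM-13 (5.62%, against 2.04% of all genes). In U937 it was 16 of 87 (18.4%, against 15.7%), and in HL-60 25 of 85 (29.4%, against 25.9%). These counts changed when libraries were left out, as given above. S100A8, a further client and a calcium-binding protein of myeloid cells, went from 27 to 52 with pLKO to 234 to 454 with shRNF5 in U937 (3.09 ± 0.48, adjusted p = 0.015) and from 27 to 77 to 257 to 992 in HL-60 (3.35 ± 0.47, adjusted p = 0.00212). In MOLM-13 S100A8 had 1135 to 3889 with pLKO and 595 to 754 with shRNF5, which did not pass (-1.47 ± 0.45, adjusted p = 0.177). RBBP4, a histone-binding subunit of several chromatin complexes, was called in no line (-0.05, 0.28 and -0.06), and the chloride channel CFTR was at 0.

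The levels with pLKO ordered the lines differently from gene to gene, and only as a description, because each line was scaled on its own. As deposited, the mean of RNF5 was 1090 (MOLM-13), 746 (U937) and 580 (HL-60). After a common median-of-ratios scaling of all libraries the means were 812, 811 and 687, and the ranges of neighbouring lines overlapped. Of the 9 genes, 4 (RNF5, SLC38A2, JKAMP and TMEM173) kept their order of lines. TMEM173 was highest in MOLM-13 by either scaling, at 5.12 and 3.23 times HL-60. PXN was lowest in HL-60 by either, at 40.8-fold and 34.1-fold below the highest line.

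Over the 15 libraries, with each line centred on its own mean, the genes whose log2 values followed RNF5 most closely of 10772 were SAP18 (Pearson r = 0.987), RNF115 (0.984), POLR2H (0.971), PRNP (0.968) and PPP6C (0.966). Those running most opposite were TWF1 (-0.953), LIMK1 (-0.951) and NRBP1 (-0.95). Since RNF5 mainly separates pLKO from shRNF5, these values describe a shared split of the same libraries. For RNF185 the closest were HNRNPF (0.961), ZNF468 (0.945), ZNF613 (0.944), TXNL1 (0.943) and SP2 (0.939).

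The residual RNF5 varied most in HL-60, and the libraries can be set beside it. Replicate 2, with 133 normalized read counts of RNF5, was the shRNF5 library nearest to the pLKO mean for 51.3% of the 3250 other genes called in that line, against 40.7% for replicate 1 and 8.03% for replicate 3. Replicate 1 of HL-60 had less RNF5 (37) than replicate 3 (43) yet was nearest for more genes, so the order did not follow RNF5 throughout. In U937, replicate 3, with the higher RNF5 value of 74, was nearest for 79.5% of 2061 genes. MOLM-13 replicates 1 and 2, with RNF5 at 76 and 81, were nearest for 47.9% and 52.1% of 265 genes. For SLC1A5 in HL-60 the nearest was replicate 2, at 3401, whereas for TMEM173 and PXN in that line it was replicate 1, at 1546 and 47. Which of RNF5 level and other differences between the libraries goes with this order was not tested.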

How the data were processed

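RNA-seq of 3 AML lines was analysed from per-library tables in which the authors deposited a normalized read count, treated here as a score because it is a scaled and rounded value and not a raw count. Per the labels and the study's methods, reads were aligned to hg19, counted with featureCounts of Subread and normalized in edgeR within each line, and genes under their filter stand at 0. Which strand setting was used for counting is not given in the sources used here.

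Values were tested as log2(value + 1) with limma 3.58.1 in R 4.3.3 (empirical Bayes with trend), per line over all genes above 0 in that line (12570 to 13165 genes), and in 1 fit of all 15 libraries (11072 genes above 0 in all lines) for the average and the differences between lines. A fold change on this scale understates that of low genes. Depth was estimated from the spacing of low values. The tests were checked on simulated data, where limma recovered 96.5% (MOLM-13), 86.5% (U937) and 99.5% (HL-60) of 200 genes changed 2-fold. False calls numbered 18, 7 and 17 among the 12570 to 13165 genes tested. The changed genes were drawn from higher values only, and every gene was given the same fixed dispersion. The shares recovered therefore do not apply to low genes or to genes that vary more between libraries. No 2 libraries were identical. Transcripts, overlaps and sequences came from GENCODE on GRCh37, aligned with Biopython 1.88. The alternatives were another pseudocount (0.5 or 10), a mean of at least 50, no trend, median-of-ratios scaling, other thresholds, replicate blocks and each library left out. In the fit of all 15 libraries the block followed the title numbers. Only number 3 occurs in both U937 groups, and MOLM-13 pLKO replicate 3 has no shRNF5 partner, so the block draws on fewer libraries in these lines.

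The 9 genes and the partner lists were chosen with earlier results of these data known. Partner genes named are those called in at least 2 lines or, where a list had fewer than 3, those of largest average fold change. Likeness was computed for genes with a mean of at least 20 in every line. Hairpin sequences and proteins were not used here.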

Additional observations from a re-analysis of the deposited data

Results flagged for a closer look

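A total of 7 differences in response between lines passed an adjusted p of 0.1 in limma's interaction test, each given as the difference of 2 log2 fold changes in the fit over all 15 libraries. SLC1A5 differed by -0.99 for MOLM-13 minus U937 and by 0.76 for U937 minus HL-60, falling in HL-60 but not in U937. ATG4B differed by 1.01 for MOLM-13 minus U937 and by -1.2 for U937 minus HL-60, with its fall in U937. RNF185 differed by 1.03, MAVS by 0.98 and PXN by -1.59 for U937 minus HL-60. RNF185 and MAVS were called in neither line taken alone. Of the 9 genes, 2 thus differed for MOLM-13 minus U937 (15.4% of all genes), 5 for U937 minus HL-60 (37.2%) and 0 for MOLM-13 minus HL-60 (8.82%). With a replicate block 5 of the 7 were lost, and 5 were lost without at least 1 single library. The block followed the title numbers, of which only number 3 occurs in both U937 groups, so its U937 values rest on 1 pair. A loss under the block therefore also reflects the libraries without a partner. Only RNF185 passed in all of these alternatives, and its highest adjusted p over the 19 alternatives was 0.0985.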

How the results depend on the processing

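Of 1062 refits of 63 responses and differences, 974 kept direction and side of the threshold, 34 lost a call, 27 gained one and 27 changed sign, 0 of the last from a called value; causes were not tested. Genes called in MOLM-13 rose from 1 to 2 with an unadjusted p, in 1 fit over all libraries and with a replicate block by the numbers in the file names, and were 1 to 2 with a library left out. In U937 they were 1 without the trend and 5 in 1 fit. They also fell without pLKO replicate 2 or either shRNF5 library, in fits that leave a group with a single library. The RNF5 log2 fold change there ranged from -3.98 to -3.30 with a library left out. Partner genes called in U937 moved too, from 16 to 2 without the trend and to 29 in 1 fit. The share of all genes called under each setting is not given here. The member counts therefore describe the settings and are no result about the 9 genes. With the replicate block, 0 differences passed for MOLM-13 minus U937, 1 for MOLM-13 minus HL-60 and 2 for U937 minus HL-60. With a library left out the numbers were 0 to 3, 0 to 1 and 2 to 5. Replicate numbers were not taken to pair the libraries, and the labels and file names number the MOLM-13 shRNF5 libraries differently. Same-number correlations above 0.1 were 3 of 6 by the labels (-0.447 to 0.386) and 5 of 6 by the file names (-0.047 to 0.447). Where a group holds 2 libraries, their correlations with a given library are equal and opposite. Pairing by the file names was thus not excluded, and it was not tried in the fit over all libraries. With a block by the file names, partner genes called in MOLM-13 went from 5 to 17. A block in U937 alone had no residual degrees of freedom. Signs changed under the block for SLC38A2 in MOLM-13 (0.29), MOLM-13 minus HL-60 (0.02) and U937 minus HL-60 (0.17), for JKAMP U937 minus HL-60 (-0.11) and PXN MOLM-13 minus U937 (-0.20), and with file-name numbers for RNF185 (-0.05) and ATG4B (0.01) in MOLM-13.

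With a library left out, signs changed within these ranges. RNF185, SLC38A2 and ATG4B in MOLM-13 ran from -0.05 to 0.29, -0.34 to 0.29 and -0.25 to 0.01, TMEM173 and PXN in U937 from -0.04 to 0.54 and -0.56 to 0.42, and ATG4B in HL-60 from -0.05 to 0.08. For MOLM-13 minus U937 the ranges were -0.47 to 0.21 (RNF5), -0.52 to 0.11 (SLC38A2), -0.42 to 0.15 (TMEM173), -0.73 to 0.05 (MAVS) and -0.26 to 0.71 (PXN). For MOLM-13 minus HL-60 they were -0.86 to 0.05 (RNF5) and -0.61 to 0.02 (SLC38A2), and for U937 minus HL-60 -0.73 to 0.18 (RNF5), -0.24 to 0.06 (SLC38A2) and -0.20 to 0.47 (JKAMP). Low depth limits PXN in HL-60 and RNF5 in the shRNF5 libraries, at 31 to 191 estimated reads.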
